A study of Mus musculus with 12 samples.

Results

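Transcripts of 35 genes of the Notch pathway were followed in mouse liver 5 days after birth. The genes were taken by symbol from a list: 4 receptors, 5 ligands, 4 enzymes that add sugars to the receptors, 5 proteins that cleave them, 5 proteins of ubiquitination and endocytosis, 5 nuclear proteins that act with the receptor, and 7 target genes. All 35 had a probe set, among 23185 genes with a value on the arrays, and 0 of the 35 lie on a sex chromosome. RNA of 12 livers was hybridised to an array each, in 4 groups of 3. RbpJk KO livers (Cre positive) carried a liver-specific deletion of RbpJk, the gene with the official symbol Rbpj, and RbpJk WT livers were their Cre-negative controls. LKB1 KO livers (Cre positive) carried a liver-specific deletion of LKB1, official symbol Stk11, a kinase gene not among the 35 genes. LKB1 WT livers were Cre negative. All mice are labelled male and were killed at 5 days, while the sources used here give neither the promoter that drove Cre in these mice nor whether the controls carried floxed alleles. In the RbpJk arm the gene of a DNA-binding partner of Notch was deleted, and the LKB1 arm gave a deletion of another gene at the same age. The study cites an earlier report of these data whose title states that the LKB1 and Notch pathways interact.

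Notch receptors sit in the plasma membrane and are activated by ligands on neighbouring cells. Furin cuts the receptor during its transport, Pofut1 and the Fringe enzymes set its sensitivity to Jagged and Delta-like ligands, and ligand binding opens it to cuts by ADAM proteases and then by gamma-secretase. The freed intracellular part enters the nucleus and binds RBPJ, a DNA-binding protein that otherwise holds target genes down with corepressors, and Mastermind-like proteins complete the activating complex. The best known targets are repressors of the Hes and Hey families and the feedback inhibitor Nrarp. In the developing liver, Jag1 on periportal mesenchyme and Notch2 on liver progenitors direct the formation of bile ducts, while Dll4, Notch1, Notch4 and Hey genes are known from blood vessels.

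The promoters of 4 genes regulated by Notch are shown because the gene deleted in the RbpJk arm encodes the protein that binds the motif they were searched for. Each sequence runs from 250 bases before to 50 bases after the transcript start and comes from RefSeq, assembly GRCm38.p6. Capitals mark TGGGAA, the core of the RBPJ motif, or TTCCCA, the same motif on the other strand, so both strands were searched in every window, and a match to either counts.
Hes5: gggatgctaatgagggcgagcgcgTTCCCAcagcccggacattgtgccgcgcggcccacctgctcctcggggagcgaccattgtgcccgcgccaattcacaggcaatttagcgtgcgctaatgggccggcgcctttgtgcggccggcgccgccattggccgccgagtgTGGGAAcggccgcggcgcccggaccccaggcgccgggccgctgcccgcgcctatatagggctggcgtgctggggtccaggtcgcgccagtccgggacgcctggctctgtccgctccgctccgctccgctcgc
Hey2: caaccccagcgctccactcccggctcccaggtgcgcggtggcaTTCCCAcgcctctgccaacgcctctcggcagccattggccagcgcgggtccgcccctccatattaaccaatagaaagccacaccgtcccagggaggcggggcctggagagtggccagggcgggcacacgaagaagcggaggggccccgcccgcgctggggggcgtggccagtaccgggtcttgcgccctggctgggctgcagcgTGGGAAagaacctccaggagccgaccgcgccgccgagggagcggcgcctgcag
Lfng: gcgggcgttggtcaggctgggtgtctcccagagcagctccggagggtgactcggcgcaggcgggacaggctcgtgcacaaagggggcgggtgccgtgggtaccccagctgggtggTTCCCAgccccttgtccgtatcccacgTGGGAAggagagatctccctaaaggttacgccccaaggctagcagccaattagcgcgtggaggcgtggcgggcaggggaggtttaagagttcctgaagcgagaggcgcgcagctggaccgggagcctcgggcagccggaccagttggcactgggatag
Nrarp: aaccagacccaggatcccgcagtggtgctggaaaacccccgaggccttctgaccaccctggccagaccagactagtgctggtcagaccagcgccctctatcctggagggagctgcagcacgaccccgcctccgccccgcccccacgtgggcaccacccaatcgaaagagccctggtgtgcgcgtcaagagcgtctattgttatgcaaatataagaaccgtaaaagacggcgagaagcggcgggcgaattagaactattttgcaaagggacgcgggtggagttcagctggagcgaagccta
The Hes5 window lies at chr4:154960673-154960972 on the plus strand, with matches that begin 226 and 82 bases upstream of the start. The Hey2 window, chr10:30842734-30843033 on the minus strand, had matches at 207 and 3 bases upstream, and that of Lfng, chr5:140607091-140607390 on the plus strand, at 135 and 108 bases upstream. The Nrarp window, chr2:25180508-25180807 on the plus strand, had 0 matches. A window was given for 29 of the 35 genes (not for Hes1, Hey1, Heyl, Mib1, Mfng and Itch), and 10 of their 37 windows held a match (27.0%, against 25.6% of all 32851 windows). Of the 4 targets with a window, 2 held a match (Hes5 and Hey2), while Nrarp and Hes6 held none. Windows with 2 or more matches numbered 4 among these genes (Hes5, Hey2, Lfng and Rbpj itself) and made up 3.79% of all windows. The printed genes were picked by name, and the pairs of matches in Hes5, Hey2 and Lfng are not typical of the 35 genes. A match here is a run of letters and no measure of binding.

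Several features of the arrays bear on the values that follow. All values are log2 expression, array medians ran from 4.84 to 5.01, and 0 pairs of arrays were identical. The array RbpJk WT 1 carried pancreatic transcripts: the summed level of 14 acinar markers was 11.65 on it and 8.13 to 8.76 on the other 11 arrays. Despite the male labels, Xist was high (10.63 to 10.75) on 6 arrays: RbpJk WT 1 and 3, LKB1 KO 3 and all LKB1 WT. Xist was low (3.81 to 5.09) on the remaining 6. The high class held 0 of 3 RbpJk KO and 2 of 3 RbpJk WT arrays. It held 1 of 3 LKB1 KO and 3 of 3 LKB1 WT arrays. Genes of the Y chromosome split these classes the opposite way. The high class read 2.30 to 2.94 for Eif2s3y, 2.23 to 2.98 for Kdm5d and 2.46 to 3.10 for Uty. The low class read 7.23 to 7.95, 5.55 to 6.38 and 5.79 to 6.59. By these genes the livers of the high class were female, unlike their labels. Sex was thus unevenly spread over the genotypes of both arms. Hepatocyte markers identified every array as liver, with summed levels from 15.04 to 15.17. Whole liver RNA mixes hepatocytes with other cells, and fewer cells of a type and less RNA per cell cannot be told apart in it. Nothing says whether the mice came from separate litters, so p-values measure only the spread between these arrays. In limma that spread is taken within groups, pooled over all 4 groups and moderated across genes.

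Rbpj, the deleted gene, was lower in RbpJk KO livers without reaching the threshold. Its level was 4.61, 4.48 and 3.92 on the RbpJk KO arrays, against 4.84, 5.05 and 5.31 on the RbpJk WT arrays. Every knockout array thus lay below every control, by at least the gap between 4.61 and 4.84. The change was -0.73 ± 0.19 (SE), or 1.66-fold, with a 95% interval from -1.13 to -0.33 and an adjusted p of 0.0724 in limma. The exact two-sided permutation test of these 6 arrays gave p = 0.1, the smallest it can give with 3 against 3. Without RbpJk WT 1 the change was -0.84 (adjusted p = 0.0534), and over all alternatives it ran from -0.87 to -0.52 with an adjusted p from 0.0534 to 0.272. With Xist class as a covariate it was -0.69, and within the low Xist class, which leaves RbpJk WT 2 as the only control and assumes that it varies like the other groups, -0.71. In the livers without a deletion of this gene, Rbpj stood at 4.85, 4.81 and 4.91 in LKB1 KO and at 4.92, 4.82 and 4.55 in LKB1 WT, a change of 0.09 ± 0.19. Of the RbpJk KO arrays only that at 4.61 lay above the lowest of these 6. Where the probes lie relative to the deleted part was not examined here, and a probe outside that part would not register the deletion. Rbpjl, a relative of Rbpj known from the pancreas, was measured apart, at 3.71 to 4.17 in RbpJk KO and 3.93 to 4.76 in RbpJk WT livers.

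Across the pathway, 0 of 35 genes passed an adjusted p under 0.05 in the RbpJk arm, where 1.68% of all genes did. At an unadjusted p under 0.05 there were 4 of 35 (11.4%, against 14.5% of all genes): Rbpj and the target Heyl lower, and the receptor Notch2 and its inhibitor Numb higher. The 3 knockout arrays lay apart from the 3 controls for 5 of 35 genes (14.3%, against 16.2% of all genes), higher for Spen, Psen2 and Numb and lower for Rbpj and Heyl. The changes ran from -0.73 (Rbpj) to 0.30 (Notch2), with a median of -0.014 beside -0.027 over all genes. The intervals say how large a change these arrays leave room for, provided that the probe set reads above background. That level is unknown, and the mean of 11 of the 35 genes lay below that of the median gene. For such dim genes an interval may understate the change, here and in the comparisons below. For 33 of 35 genes the 95% interval lay within a 2-fold change either way, the exceptions being Rbpj and Heyl. For 18 it lay within 0.5 on the log2 scale. Over all 23185 genes these counts were 21759 and 10604. Without RbpJk WT 1, 0 of 35 genes passed (2.01% of all genes) and 3 had an unadjusted p under 0.05 (17.7% of all genes), namely Rbpj, Heyl and Numb. The groups then lay apart for 11 of 35 genes, or 31.4%, against 30% of all genes. The additions were Notch1, Adam17 and Numbl higher and Dll3, Dll4 and Nrarp lower.

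In the LKB1 arm, 0 of 35 genes passed (0.962% of all genes), and 0 of 35 had an unadjusted p under 0.05 (8.05% of all genes). The arrays lay apart for 4 of 35 genes (11.4%, against 16.4% of all genes): Hes6 higher, and Maml2, Notch1 and Rfng lower. The changes ran from -0.25 (Psen2) to 0.32 (Hes6), with a median of -0.0042 beside -0.011 over all genes. For 35 of 35 genes the 95% interval lay within a 2-fold change, and for 25 within 0.5, beside 22244 and 12689 of all 23185 genes. Stk11, deleted in this arm, was at 7.03, 6.85 and 6.38 in LKB1 KO livers, against 7.58, 7.53 and 7.53 in LKB1 WT livers (change -0.80, adjusted p = 0.0224).

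**Figure D1:**
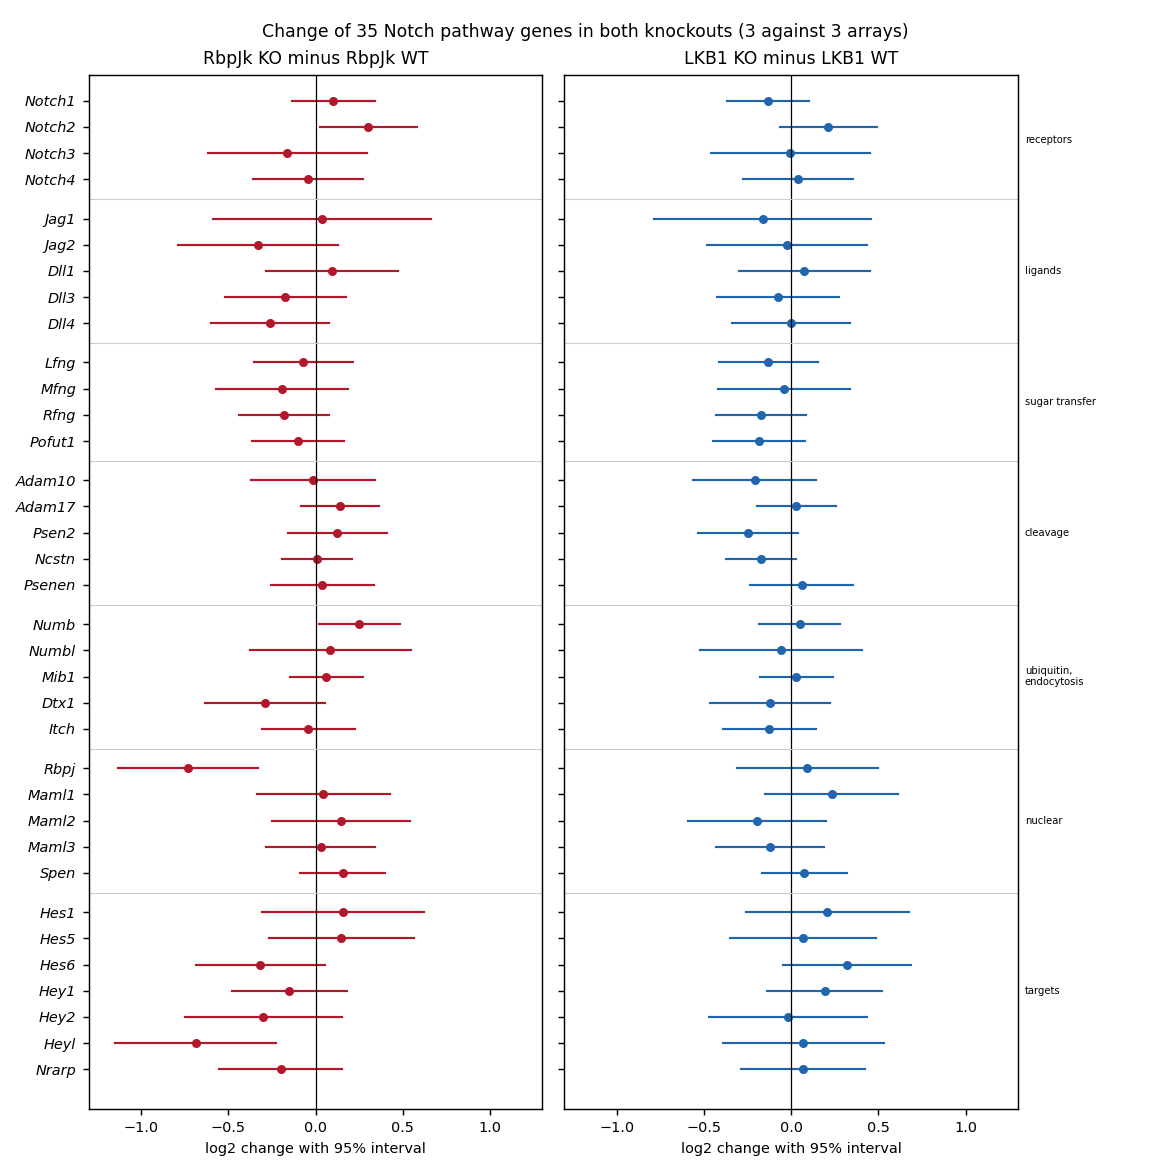
Log2 change (x axis) of each of the 35 genes, grouped by role, in RbpJk KO minus RbpJk WT (left) and LKB1 KO minus LKB1 WT (right). Points are changes and bars their 95% intervals from limma, 3 arrays against 3. Rbpj at -0.73 and Heyl at -0.69 stand to the left in the RbpJk arm, and all changes of the LKB1 arm lie between -0.25 and 0.32.

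Of the 4 receptors, Notch2 had the greatest change in both arms. It was at 7.40, 7.79 and 7.62 in RbpJk KO livers, against 7.25, 7.17 and 7.48 in RbpJk WT livers, so that the lowest knockout array lay below the highest control. The change was 0.30 ± 0.13 (interval 0.02 to 0.58, adjusted p = 0.298). LKB1 KO livers gave 7.54, 7.33 and 7.25, against 7.06, 7.27 and 7.15 in LKB1 WT livers, a change of 0.21 ± 0.13 (adjusted p = 0.816). Notch1 was at 6.25, 6.19 and 6.33 in RbpJk KO and 6.22, 6.18 and 6.06 in RbpJk WT livers, a change of 0.10 ± 0.11. In the LKB1 arm it was at 6.27, 6.23 and 6.07 in LKB1 KO and at 6.28, 6.30 and 6.39 in LKB1 WT livers. All 3 LKB1 KO arrays lay below the LKB1 WT arrays, with a change of -0.13 ± 0.11 (adjusted p = 0.928). For Notch3, known from vascular smooth muscle, and Notch4, an endothelial receptor, the changes were -0.16 and -0.04 in the RbpJk arm and -0.0042 and 0.04 in the LKB1 arm.

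Of the 5 ligands, 0 passed in either arm. Jag2 was at 4.20, 3.67 and 3.57 in RbpJk KO livers, against 4.50, 4.14 and 3.79 in RbpJk WT livers, with overlap (change -0.33 ± 0.21, adjusted p = 0.506). The Jag2 change was -0.16 without RbpJk WT 1, the highest of these arrays (adjusted p = 0.75). Dll4, the ligand of sprouting and arterial endothelium, was at 4.99, 4.68 and 4.73 in RbpJk KO livers, against 4.87, 5.32 and 4.99 in RbpJk WT livers (change -0.26 ± 0.16, adjusted p = 0.477). Without RbpJk WT 1 the Dll4 groups no longer overlapped and the change was -0.36. The Dll4 change in the LKB1 arm was -0.0026 (interval -0.34 to 0.34). Jag1, the ligand of bile duct formation, was at 4.91, 4.56 and 4.29 in LKB1 KO and 4.86, 4.89 and 4.50 in LKB1 WT livers (change -0.16 ± 0.29). It was the least reproducible of the 35 genes, with a pooled SD within groups of 0.43 against a median of 0.18, and its RbpJk WT arrays stood at 4.88, 3.80 and 5.25. Its interval in the RbpJk arm, -0.58 to 0.66 around a change of 0.04, was the widest of the 35, and the change was 0.16 without RbpJk WT 1. Dll3, a ligand that acts inside the cell and is known from somites, was at 3.33, 3.45 and 3.56 in LKB1 KO and 3.49, 3.51 and 3.56 in LKB1 WT livers, a change of -0.07 ± 0.16. For Dll1 the change was 0.09 in the RbpJk arm and 0.08 in the LKB1 arm.

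The 4 sugar-transferring enzymes were below their controls on average in both arms, each time 4 of 4, also after quantile normalization and after median centring. Over all genes 45.1% (RbpJk) and 47.4% (LKB1) of changes were above 0, and 0 of 4 enzymes passed in either arm. Sugar enzymes of a second list, described below, went either way. Examples were Gxylt1 (0.36) and Poglut2 (-0.21) in the RbpJk arm, and Eogt (0.19) and Poglut1 (-0.23) in the LKB1 arm. Rfng was at 6.34, 6.19 and 5.97 in RbpJk KO livers, against 6.46, 6.24 and 6.32 in RbpJk WT livers (change -0.18 ± 0.12, adjusted p = 0.529, and -0.12 without RbpJk WT 1). It was at 6.18, 6.21 and 6.13 in LKB1 KO livers, against 6.39, 6.30 and 6.34 in LKB1 WT livers (change -0.17 ± 0.12, adjusted p = 0.873). The groups lay apart in the second of these comparisons and overlapped in the first. Mfng was at 4.95, 4.44 and 4.81 in RbpJk KO and 5.03, 4.64 and 5.10 in RbpJk WT livers (change -0.19 ± 0.18, and 0.09 within the low Xist class). Pofut1, which attaches the first fucose, was at 6.67, 6.39 and 6.68 in LKB1 KO and 6.78, 6.59 and 6.93 in LKB1 WT livers (change -0.18 ± 0.12). Lfng, itself a target of Notch in somites, had a change of -0.07 in the RbpJk arm and -0.13 in the LKB1 arm, and its promoter printed above held a pair of matches.

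Of the 5 cleavage genes, 4 were above their controls on average in the RbpJk arm (2 after quantile normalization and 5 after median centring) and 2 in the LKB1 arm, and 0 passed in either. Psen2, a catalytic subunit of gamma-secretase, was at 6.60, 6.54 and 6.49 in RbpJk KO livers, against 6.39, 6.46 and 6.40 in RbpJk WT livers. These groups lay apart, by a change of 0.12 ± 0.13 (adjusted p = 0.716). It was at 6.73, 6.31 and 6.23 in LKB1 KO livers, against 6.67, 6.78 and 6.56 in LKB1 WT livers (change -0.25 ± 0.13, adjusted p = 0.738), with LKB1 KO 1 within the range of the controls. The difference of the changes in these arms was 0.37 ± 0.19 (adjusted p = 0.589). Ncstn, the substrate receptor of gamma-secretase, was at 8.18, 8.02 and 8.06 in LKB1 KO and 8.34, 8.18 and 8.26 in LKB1 WT livers (change -0.17 ± 0.09). It had the narrowest interval of the 35 genes in the RbpJk arm, -0.19 to 0.21 around a change of 0.01. Adam17 was at 7.19, 7.50 and 7.28 in RbpJk KO and 7.25, 7.14 and 7.16 in RbpJk WT livers (change 0.14 ± 0.10). Adam10, the main protease of the first activating cut, had changes of -0.01 in the RbpJk arm and -0.21 in the LKB1 arm, and Psenen, another gamma-secretase subunit, of 0.04 and 0.06.

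Numb, an endocytic adaptor that lowers Notch activity, had the smallest p among the ubiquitin and endocytosis genes. It was at 7.29, 7.15 and 7.32 in RbpJk KO livers, against 7.08, 7.04 and 6.89 in RbpJk WT livers. All knockout arrays lay above all controls, by a change of 0.25 ± 0.11 (interval 0.02 to 0.49, adjusted p = 0.302), and the change was 0.05 in the LKB1 arm. Dtx1, an E3 ligase of the Deltex family, was at 4.55, 4.8 and 4.38 in RbpJk KO and 4.76, 4.8 and 5.05 in RbpJk WT livers (change -0.29 ± 0.16, adjusted p = 0.429). In LKB1 KO livers it was at 4.30, 4.49 and 4.46, against 4.34, 4.74 and 4.54 in LKB1 WT livers (change -0.12 ± 0.16). Itch, an E3 ligase that marks Notch for breakdown, was at 7.69, 7.71 and 7.61 in LKB1 KO and 7.87, 7.81 and 7.70 in LKB1 WT livers (change -0.12 ± 0.12). The changes of Numbl, a relative of Numb, were 0.09 in the RbpJk arm (0.28 without RbpJk WT 1) and -0.06 in the LKB1 arm. Those of Mib1, the ligase that makes ligands competent to signal, were 0.06 and 0.03.

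Of the other 4 nuclear proteins, 0 passed in either arm. Spen, a corepressor that binds RBPJ, was at 6.57, 6.42 and 6.43 in RbpJk KO livers, against 6.35, 6.21 and 6.38 in RbpJk WT livers. Its groups lay apart with a change of 0.16 ± 0.11 (adjusted p = 0.568), and the change in the LKB1 arm was 0.08. Of the Mastermind-like coactivators, Maml1 was at 5.48, 5.68 and 5.76 in LKB1 KO and 5.68, 5.25 and 5.29 in LKB1 WT livers (change 0.23 ± 0.18). Maml2 was at 5.49, 5.61 and 5.59 in LKB1 KO and 5.63, 5.66 and 5.98 in LKB1 WT livers, apart by a change of -0.19 ± 0.18 (adjusted p = 0.948). In the RbpJk arm the changes of Maml1, Maml2 and Maml3 were 0.04, 0.14 and 0.03, and that of Maml3 in the LKB1 arm was -0.12.

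Among the 7 targets, 0 passed in either arm. On average 2 of 7 were above their controls in the RbpJk arm (Hes1 and Hes5) and 6 of 7 in the LKB1 arm (all but Hey2). Quantile normalization and median centring each left the 2 of 7 as they were and gave 7 of 7 in the LKB1 arm. Over all genes tested, 45.1% and 47.4% of changes were above 0 in these arms. The median change of the 7 was -0.20 in the RbpJk arm and 0.07 in the LKB1 arm.

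Heyl, a Hey repressor known from vascular smooth muscle, was the target with the lowest change in the RbpJk arm, and it missed the threshold. It was at 5.89, 6.93 and 6.32 in RbpJk KO livers, against 7.0, 7.17 and 7.03 in RbpJk WT livers. All knockout arrays lay below all controls, RbpJk KO 2 by only the gap between 6.93 and 7.0. The change was -0.69 ± 0.21 or 1.61-fold (interval -1.15 to -0.23, adjusted p = 0.143, exact permutation p = 0.1). This value turned on the knockout array left out: without RbpJk KO 2 the change was -0.96 and passed (adjusted p = 0.0181), and without RbpJk KO 1 it was -0.44 (adjusted p = 0.344). Without RbpJk WT 1 it was -0.72 (adjusted p = 0.156), and within the low Xist class -0.79 (adjusted p = 0.309). The summed level of 14 stellate cell markers was 11.06, 11.69 and 11.28 on the RbpJk KO arrays, lowest and highest on the same arrays as Heyl. It was 11.53, 11.28 and 11.02 on the RbpJk WT arrays. This sum weighs the brightest marker, Dcn (9.72, 10.07 and 9.73 in RbpJk KO), most. Reln (8.15, 8.48 and 8.37) followed the order of Heyl there, and Lrat (6.59, 6.60 and 6.47) did not. Of the stellate markers 0 of 14 passed, with Lrat and Reln apart and lower in RbpJk KO livers (14.3%, against 8% of all genes). The changes of 8 of the 14 were above 0 (57.1%, against 45.1% of all genes), and they ran from -0.41 (Lrat) to 0.55 (Lum). Endothelial sums were 12.05 to 12.17 in RbpJk KO and 11.94 to 12.12 in RbpJk WT livers, and 0 of 24 markers passed. The part of these cells in the result was not tested. Heyl in the LKB1 arm was at 6.70, 6.40 and 6.79 in LKB1 KO livers, against 6.84, 6.33 and 6.50 in LKB1 WT livers, a change of 0.07 ± 0.21.

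Hes6, a Hes relative known to oppose Hes1, had changes of opposite sign in the 2 arms and passed in neither. It was at 4.79, 4.69 and 4.41 in RbpJk KO livers, against 5.20, 5.01 and 4.63 in RbpJk WT livers (change -0.32 ± 0.17, adjusted p = 0.421). RbpJk WT 1 was the highest of these arrays, and without it the Hes6 change was -0.19 (adjusted p = 0.62). It was at 5.04, 4.93 and 5.20 in LKB1 KO livers, against 4.87, 4.55 and 4.78 in LKB1 WT livers (change 0.32 ± 0.17, adjusted p = 0.736). The groups overlapped in the RbpJk arm and lay apart in the LKB1 arm. Hey1, an endothelial and arterial target, was at 4.97, 5.06 and 4.96 in LKB1 KO and 5.04, 4.68 and 4.69 in LKB1 WT livers (change 0.19 ± 0.15), and its change in the RbpJk arm was -0.15 ± 0.15 (-0.08 without RbpJk WT 1). Endothelial sums were 11.84 to 11.97 in LKB1 KO and 12.12 to 12.22 in LKB1 WT livers, and 15 of 24 endothelial markers lay apart and lower (62.5%, against 8.6% of all genes) while 0 passed. Their part in the target values was not tested.

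Hes1, the target most used as a readout of Notch activity, is given although its p did not select it. It was at 7.59, 7.76 and 7.38 in RbpJk KO livers, against 7.23, 7.15 and 7.89 in RbpJk WT livers, a change of 0.16 ± 0.22. RbpJk WT 3 lay above all knockout arrays and the other 2 controls below them. The interval was -0.31 to 0.62. The Hes1 change without RbpJk WT 1 was 0.06 and its interval, -0.47 to 0.59, reached further down. In LKB1 KO livers it was at 7.94, 7.49 and 7.04, against 7.20, 7.25 and 7.40 in LKB1 WT livers (change 0.21 ± 0.22), the knockouts spanning the controls on both sides. Of the genes whose promoters are printed above, Hes5 had a change of 0.15 (interval -0.27 to 0.57), Hey2 of -0.30 (interval -0.75 to 0.15) and Nrarp of -0.20 (interval -0.56 to 0.15) in the RbpJk arm. The Hey2 change without RbpJk WT 1 was -0.45 (interval -0.93 to 0.03, adjusted p = 0.31). That of Nrarp was then -0.34 (interval -0.70 to 0.03, adjusted p = 0.314), and its groups no longer overlapped. In the LKB1 arm their changes were 0.07, -0.02 and 0.07.

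**Figure D2:**
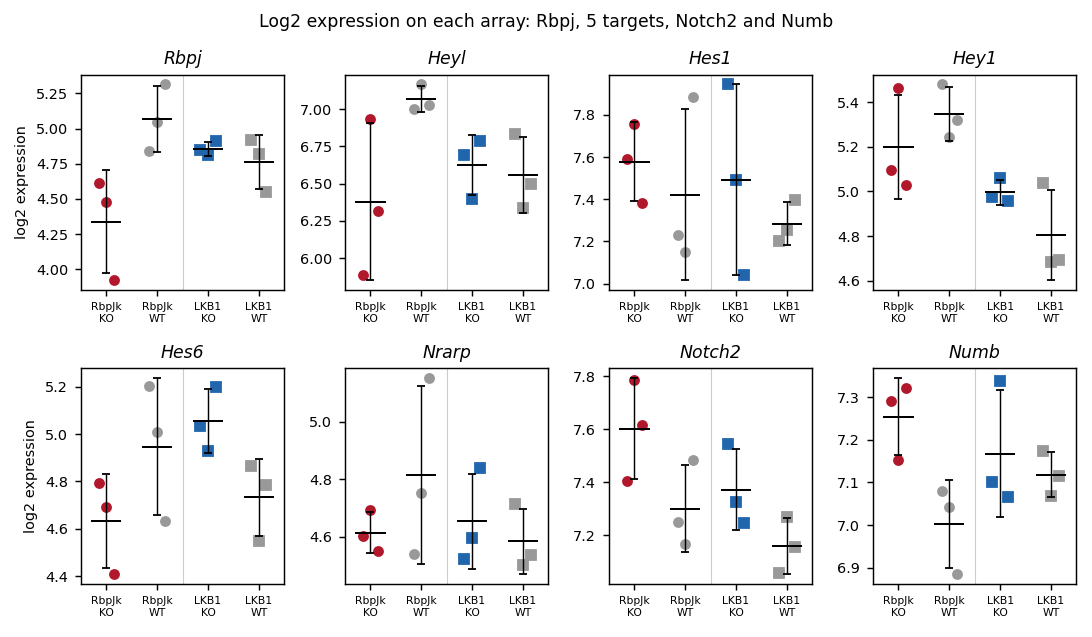
Log2 expression (y axis) on each array of Rbpj, the targets Heyl, Hes1, Hey1, Hes6 and Nrarp, the receptor Notch2 and Numb in the 4 groups. Points are arrays, long bars are group means and error bars are 1 SD (n = 3). Rbpj and Heyl lie lower and Numb higher on all 3 RbpJk KO arrays than on the RbpJk WT arrays, while the Hes1 and Notch2 arrays of both arms overlap.

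The difference of the RbpJk change and the LKB1 change passed for 0 of 35 genes (0.181% of all genes). At an unadjusted p under 0.05 there were 3 of 35 (8.57%, against 9.13% of all genes), all with the RbpJk change the lower. They were Rbpj, with a difference of -0.82 ± 0.27 (adjusted p = 0.329), Heyl, with -0.76 ± 0.30 (adjusted p = 0.457), and Hes6, with -0.64 ± 0.24 (adjusted p = 0.428). No pathway gene was thus shown to respond differently to the 2 deletions. The intervals of the difference lay within a 2-fold change for 31 of 35 genes, beside 19313 of all 23185 genes. The median difference was 0.017, beside -0.013 over all genes.

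**Figure D3:**
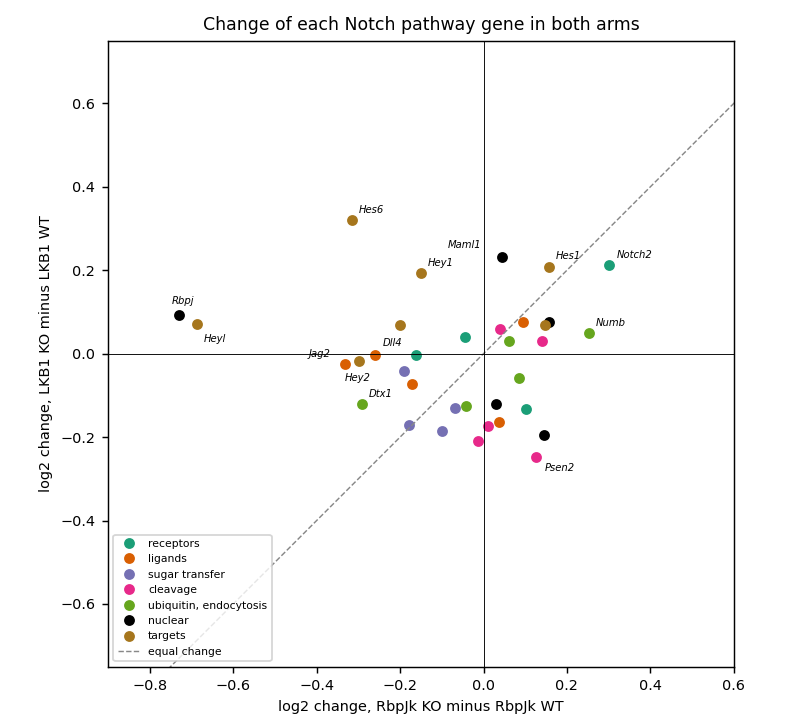
Log2 change of each of the 35 genes in the RbpJk arm (x axis, RbpJk KO minus RbpJk WT) and in the LKB1 arm (y axis, LKB1 KO minus LKB1 WT), coloured by role, with the line of equal change dashed. Rbpj and Heyl lie far to the left at LKB1 changes near 0, and Hes6 lies at -0.32 and 0.32.

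The control livers of the 2 arms were also set against each other, since neither carried a deletion. Arm and any unrecorded batch cannot be told apart in this comparison. Again 0 of 35 genes passed (0.699% of all genes), and 2 of 35 had an unadjusted p under 0.05 (5.71%, against 12.5% of all genes). Hey1 was at 5.04, 4.68 and 4.69 in LKB1 WT livers, against 5.48, 5.24 and 5.32 in RbpJk WT livers (difference -0.54 ± 0.15, adjusted p = 0.143). Heyl differed by -0.51 ± 0.21 (adjusted p = 0.349). This difference and its change in the RbpJk arm rest on the same RbpJk WT arrays. All 3 LKB1 WT arrays lay below all 3 RbpJk WT arrays for both genes. The RbpJk KO arrays of Heyl, at 5.89 to 6.93, thus spanned the LKB1 WT arrays, at 6.33 to 6.84. Groups lay apart for 6 of 35 genes (17.1%, against 16.7% of all genes): Spen, Notch1 and Psen2 higher in LKB1 WT, and Dtx1, Hey1 and Heyl lower.

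A second list held other proteins of the pathway: further ligands, sugar and ubiquitin enzymes, gamma-secretase subunits, histone modifiers and target genes. Of its 54 measured genes (57 listed), 1 rose and 0 fell in the RbpJk arm (1.12% and 0.565% of all genes), and 0 passed in the LKB1 arm. The gene that rose was Furin, the protease that cuts Notch receptors and many other proproteins in the secretory pathway. It was at 8.26, 8.29 and 8.20 in RbpJk KO livers, against 7.82, 7.75 and 7.78 in RbpJk WT livers. The change of 0.47 ± 0.08, or 1.39-fold, had an adjusted p of 0.0109 (exact permutation p = 0.1). The spread within either group was 0.04 (SD), far less than the change. Furin was at 8.14, 8.04 and 8.0 in LKB1 KO livers, against 7.92, 7.94 and 7.88 in LKB1 WT livers, apart as well (change 0.14 ± 0.08, adjusted p = 0.805). The difference of the changes was 0.33 ± 0.12 (adjusted p = 0.407). The call was lost in a fit to the RbpJk arm alone (adjusted p = 0.109), with Xist class as a covariate (0.0857, and 0.0921 with RbpJk WT 1 left out as well) and within the low Xist class (0.105), with changes of 0.46 to 0.50.

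Of the 54 genes, 6 in the LKB1 arm had an unadjusted p under 0.05 (11.1%, against 8.05% of all genes), with Mib2, Neurl1b, Aak1, Bhlhe40 and Cdkn1a higher and Dtx3l lower. Neurl1b, an E3 ligase of Notch ligands, was at 4.58, 4.87 and 4.75 in LKB1 KO livers, against 3.97, 4.12 and 4.12 in LKB1 WT livers (change 0.67 ± 0.17, adjusted p = 0.113). Cdkn1a, the cell cycle inhibitor p21, was at 8.95, 8.22 and 9.41 in LKB1 KO livers, against 8.08, 8.06 and 7.84 in LKB1 WT livers (change 0.86 ± 0.24, adjusted p = 0.144). Cdkn1a is known to answer many stress signals besides Notch. Its change in the RbpJk arm, singled out after its values were seen, was 0.93 ± 0.24 (adjusted p = 0.071), with 8.97, 9.60 and 9.10 in RbpJk KO livers, against 8.35, 8.09 and 8.45 in RbpJk WT livers. The knockout arrays of both arms lay above all of their controls for this gene. Kdm5a, a histone demethylase that binds RBPJ, was chosen in the same way, with a change of 0.43 ± 0.12 in the RbpJk arm (adjusted p = 0.0992) and 0.03 in the LKB1 arm. In the RbpJk arm 4 of the 54 genes had an unadjusted p under 0.05 (7.41%, against 14.5% of all genes). Furin, Kdm5a and Cdkn1a were higher. Hes2, another gene of the Hes family, was lower and apart (change -0.44 ± 0.18, adjusted p = 0.265, and -0.52 without RbpJk WT 1).

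**Figure D4:**
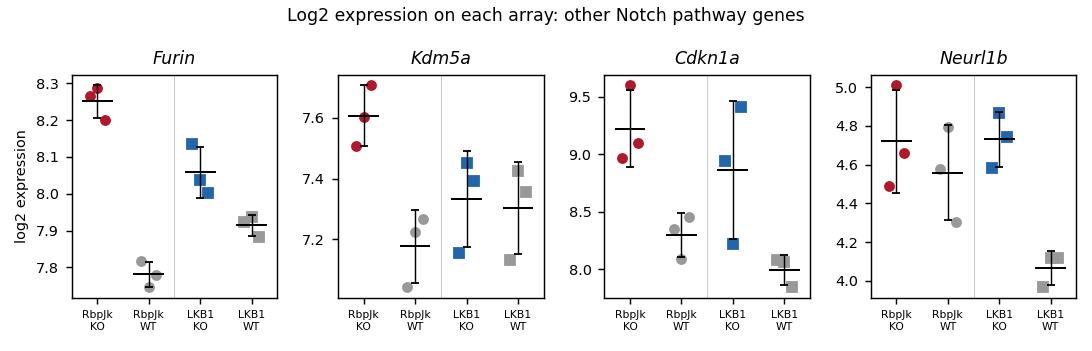
Log2 expression (y axis) on each array of Furin, Kdm5a, Cdkn1a and Neurl1b in the 4 groups. Points are arrays, long bars are group means and error bars are 1 SD (n = 3). Furin is higher on all RbpJk KO arrays (8.20 to 8.29) than on the RbpJk WT arrays (7.75 to 7.82), and Cdkn1a is higher on the knockout arrays of both arms than on their controls.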

How the data were processed

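Livers of 12 mice in 4 groups of 3 were hybridised to an Affymetrix whole-transcript array each, from Trizol-extracted RNA, per the labels. Mouse Gene 2.0 ST is the array type named in the study's methods, and the submitters' processing notes name Partek with no version. The authors deposited log2 expression values, 1 per probe set, from 1.19 to 13.0. Background correction, summarisation and normalization were not given in the sources used here, and there are no detection calls, so the level below which a probe set reads background is unknown and low values may understate changes. Array medians were close, with a shift between knockouts and controls of -0.055 (RbpJk) and -0.0275 (LKB1).

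Of 25206 probe sets, 23185 had 1 gene symbol in the platform annotation and 2021 had none. Group means of the 12 arrays were estimated jointly in limma 3.58.1 (R 4.3.3), so that all groups shared 1 spread per gene, moderated by eBayes with an intensity trend (degrees of freedom 8 residual, 5.88 prior). All adjusted p-values are Benjamini-Hochberg over the 23185 genes, and "passed" means an adjusted p under 0.05. Contrasts were each knockout minus its controls, the difference of these changes, and LKB1 WT minus RbpJk WT. Groups "lay apart" when their array values did not overlap. Summed levels of markers are log2 of the sum of unlogged values.

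The 35 genes, the further pathway list and the marker lists were chosen with earlier results of these data known. Values on every array are given for Rbpj, for called genes, and for the 2 genes of smallest p in each role and arm. Of the further list, called genes are named, or the 2 of smallest p. Replicate numbers follow the order of entry and pair nothing. Alternatives were other variance models, array weights, quantile normalization, median centring, a filter on dim genes, all probe sets, a fit per arm, Xist class, and leaving out each array.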

Additional observations from a re-analysis of the deposited data

How the results depend on the processing

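The count of 0 of 35 genes held in the LKB1 arm, for the difference and between the controls under every alternative run, which numbered 23 for the arms, 12 of them leaving out an array. In the RbpJk arm it ran from 0 to 1 over the arrays left out, being 1 (Heyl) without RbpJk KO 2. Rbpj kept its direction and missed the threshold in all 22 alternatives it entered. The filter on dim genes dropped 11 of the 35 genes, Rbpj included. For the further pathway genes the RbpJk count of 1 became 0 in the fit per arm and within 1 Xist class, 2 with the dim filter (Furin and Cdkn1a) and 3 with median centring (Kdm5a, Furin and Cdkn1a), and ran from 1 to 2 over the arrays left out, being 2 (Furin and Cdkn1a) without LKB1 KO 2 or LKB1 KO 3. With Xist class as a covariate the count stayed at 1, but the gene was Cdkn1a (adjusted p = 0.0217) and not Furin. Their LKB1 count of 0 became 1 in the fit per arm and with array weights (Neurl1b) and with Xist class as a covariate (Cdkn1a), and ran from 0 to 1 over the arrays left out, being 1 (Cdkn1a) without LKB1 KO 2. Of 727 values of named genes, 706 kept their sign and their side of the threshold. Signs turned for Mfng in the RbpJk arm within 1 Xist class (0.0901), for Jag1 in the LKB1 arm with Xist class as a covariate (0.11, and 0.0852 with RbpJk WT 1 left out as well), and for Dll3 in the LKB1 arm within 1 Xist class (0.0422) and with the covariate and without RbpJk WT 1 (0.043). The cause of these moves was not tested. No paired analysis was possible because the mouse codes in the labels are unique to each array and link no knockout to a control. With 3 arrays a group, the median half-width of an interval over the 35 genes was 0.34, which limits what could be called.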

Other observations

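Between the control livers, 7 of the 54 further pathway genes had an unadjusted p under 0.05 (13%, against 12.5% of all genes) and 0 passed. Higher in LKB1 WT livers were the acetyltransferase gene Ep300 (difference 0.30), the xylosyltransferase gene Gxylt1 (0.61) and the gamma-secretase subunit genes Aph1b (0.60) and Aph1c (0.49). Lower in LKB1 WT livers were Poglut2 (-0.24), Gxylt2 (-0.37) and Neurl1b (-0.49). Neurl1b, whose change in the LKB1 arm had the smallest p of the list there, was at 3.97, 4.12 and 4.12 in LKB1 WT livers, against 4.58, 4.79 and 4.31 in RbpJk WT livers, and these groups did not overlap. The LKB1 KO arrays, at 4.58 to 4.87, overlapped the RbpJk WT arrays.

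Kupffer cell markers were measured beside the pathway genes. In the RbpJk arm Cd5l and Cd68 passed as higher and Adgre1 as lower (3 of 11 or 27.3%, against 1.68% of all genes). Without RbpJk WT 1 only Cd5l passed (adjusted p = 0.0475), with adjusted p = 0.0568 for Cd68 and 0.0885 for Adgre1. The summed level of 11 markers was 11.75 to 11.86 in RbpJk KO and 11.54 to 11.73 in RbpJk WT livers. In the LKB1 arm 0 of 11 passed and the sum was 11.31 to 11.42 in LKB1 KO and 11.61 to 11.73 in LKB1 WT livers. There 6 of 11 markers lay apart and lower (54.5%, against 8.6% of all genes), and 0 of 11 changes were above 0 (47.4% of all genes). Cholangiocyte markers, of interest because Notch directs bile duct formation, passed for 0 of 17 genes in the RbpJk arm, with summed levels of 11.26 to 11.63 in RbpJk KO and 10.98 to 11.43 in RbpJk WT livers. The highest of these controls was RbpJk WT 1, the array with pancreatic transcripts, on which Epcam was at 6.53, against 4.39 and 4.34 on the other RbpJk WT arrays. Without it 0 of 17 passed as well, and the remaining control sums, 10.98 and 11.23, lay below all 3 RbpJk KO sums. These sums weigh the brightest markers, Krt18 and Krt8, most (changes 0.42 and 0.57 without RbpJk WT 1), and do not stand for the list. The median change of the 17 markers was then 0.012, beside -0.058 over all genes. Their changes ran from -0.40 (Prom1) to 1.06 (Cldn7), with 0.01 for Krt19 and 0.02 for Sox9. Whether the number of duct cells changed was not tested. Krt8, Cldn4 and Bicc1 then lay apart and higher, and Epcam (-0.38) and Sctr (-0.26) apart and lower, as 30% of all genes lay apart. With all arrays 9 of 17 markers had an unadjusted p under 0.05 (52.9%, against 14.5% of all genes), 5 higher and 4 lower. Without RbpJk WT 1 only Krt8, Krt18, Cldn4 and Cldn7 (higher) and Epcam (lower) did, as did 17.7% of all genes. In the LKB1 arm Bicc1 alone passed, as higher, with sums of 11.20 to 11.42 in LKB1 KO and 11.20 to 11.25 in LKB1 WT livers.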
